A study of Mus musculus with 16 samples.

Results

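The genes described here are 34 DNA replication and S-phase genes, found by their symbols among the 32285 genes measured in each of 16 single-cell RNA-seq libraries of mouse bone marrow and mammary tumors. All 34 symbols were present in every library. The list goes by gene names and was chosen with earlier results of these data known. A dividing cell copies its DNA once in S phase. In G1, Cdc6 and Cdt1 load the ring-shaped helicase Mcm2 to Mcm7 onto origins, and Gmnn blocks Cdt1 so that no origin is used again in the same cycle. At the start of S phase Cdc45 and the GINS complex (Gins1 and Gins2 are subunits) join the MCM ring, with Mcm10, to form the active helicase. Pola1 and Prim1 make primers, Pold1 and Pole are the catalytic subunits of the replicative polymerases, Pcna is the sliding clamp, Rfc2 to Rfc4 belong to the clamp loader, Rpa1 and Rpa2 coat single strands, and Fen1 and Lig1 finish the lagging strand. Rrm1 and Rrm2 form ribonucleotide reductase, Tyms makes thymidylate and Dut removes dUTP, which together supply nucleotides. Ung removes uracil from DNA, Uhrf1 carries DNA methylation to the new strand, Slbp binds histone mRNA, Chaf1b places new histones and Clspn relays the replication checkpoint. Transcription of many of these genes is driven by E2F factors as cells leave G1, and in bone marrow they mark the dividing progenitors, since mature neutrophils no longer divide.

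The study asked how IACS-70654, an inhibitor of the bromodomain of the histone acetyltransferases CBP and P300, acts on mice carrying 2208L, a Trp53-null mammary tumor transplanted into the fat pad of immunocompetent female BALB/c mice. Bone marrow was sorted in 2 ways, as CD45+Ter119- cells (called CD45 below) and as lineage-negative c-Kit+ CD45+ cells, which hold the stem and progenitor cells (called HSPC below). Each sort had 3 groups with 2 libraries each: wild-type mice without a tumor (labelled ctrl, untreated, called WT below), tumor-bearing mice given vehicle (0.5% methylcellulose in the study's methods), and tumor-bearing mice given IACS-70654 (called IACS below). Live cells of 2208L tumors came from 4 conditions with 1 library each, namely vehicle, IACS-70654, anti-PD-1 and their combination. The series description gives 7 days of treatment on a 3-on/2-off schedule and pools of cells from 3 mice per treatment group, whereas the study's text gives a shorter course for the marrow mice. For every sample the study's methods give a pool of 3 mice, without saying whether a sample was a library or a group. The labels did not state whether the 2 libraries of a marrow group came from separate pools or from parts of 1 pool. The p-values therefore measure the spread between these libraries, which may be technical. The ages of the mice at harvest were not given in the labels, and all groups other than WT carried the same tumor line.

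Libraries held 2062 to 8205 barcodes and 15590289 to 68415534 UMIs. No barcode was shared within a sort, and 525 were shared across sorts, at most 17 in any pair of libraries. Depth moved with treatment: in the CD45 sort the median UMIs per cell kept were 6534 and 6596.5 under IACS against 5330.5 and 5328 under vehicle and 4113 and 4276.5 in WT, whereas in the HSPC sort they were 6954 and 6712 under IACS against 9512 and 8670.5 under vehicle and 8061 and 7810 in WT. Levels are therefore given as counts per 1000000 UMIs of a cell class in a library (CPM), and shares of cells were taken after thinning each cell to a fixed number of UMIs. Each UMI is 1 molecule tagged at its 3′ end, so levels of different genes carry no length term. Cell classes were clusters built without cell cycle genes and named from marker genes, so a class was not defined by the replication genes it is compared on.

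Promoter sequences are shown for Cdc6, Rrm2, Mcm10 and Cdc45, which were called in at least 1 marrow class, and for Mcm5, which was called in none between IACS and vehicle and is shown for its E2F letters on both strands, because E2F factors and the CCAAT-binding factor NF-Y are the known activators of this group. The RefSeq table of GRCm38.p6 held a promoter, from 250 bases before to 50 bases after the annotated start, for 28 of the 34 members. Each window below is 60 bases on the gene's strand and lies before the start, with capitals marking the E2F letters (TTT, then CC, CG, GC or GG, then CGC) or their reverse complement, and the box CCAAT or its reverse complement ATTGG.
Cdc6, chr11:98907987-98908046, plus strand: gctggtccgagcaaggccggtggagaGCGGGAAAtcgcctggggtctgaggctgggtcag
Mcm5, chr8:75109334-75109393, plus strand: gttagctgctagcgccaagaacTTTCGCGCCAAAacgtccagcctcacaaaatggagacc
Rrm2, chr12:24708176-24708235, plus strand: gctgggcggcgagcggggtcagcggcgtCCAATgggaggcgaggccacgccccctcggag
Mcm10, chr2:5012792-5012851, minus strand: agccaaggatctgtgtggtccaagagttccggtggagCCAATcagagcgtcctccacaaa
Cdc45, chr16:18811973-18812032, minus strand: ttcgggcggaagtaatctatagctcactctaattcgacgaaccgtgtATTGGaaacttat
In Cdc6 and Mcm5 the E2F letters nearest the start lay 130 and 141 bases before it. In Rrm2, Mcm10 and Cdc45, whose 250 bases before the start did not hold those letters, the nearest CCAAT box lay 45, 18 and 8 bases before it. Some genes have more than 1 promoter in the table, so the counts are of symbols with a match in any of them. The E2F letters were found on either strand in 12 of the 28 members (42.9%) and in 704 of 27025 symbols of the table (2.6%), and the CCAAT box in 18 of 28 (64.3%) against 41.1% of all symbols. The capitals in Mcm5 run longer than 8 bases because matches on the 2 strands overlap. Windows were drawn only where such letters lay before the start. Ung, Tyms, Chaf1b and Fen1, which were also called in marrow, held neither match in their promoters. A match is a description of the letters and not a site shown to be bound.

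The 34 genes together were highest in dividing progenitors and lowest in neutrophils past division. In the CD45 sort their summed level, given as the lowest, median and highest library, was 2980.1, 3077.2 and 3147.2 CPM in proNeu-like cells, the earliest neutrophil precursors, and 2069.0, 2160.5 and 2282.1 CPM in preNeu-like cells, the next stage. The ranges of these 2 classes did not overlap. In immature neutrophils it was 216.37, 261.53 and 295.38 CPM, and in mature neutrophils 232.19, 238.81 and 277.94 CPM, and these last 2 ranges overlapped. Precursor B cells spanned the widest range among the classes with 6 libraries, 1651.9 to 3622.5 CPM with a median of 3290.2, and overlapped proNeu-like cells. Monocytes lay at 1836.9 to 2350.1 CPM, overlapping preNeu-like cells, while mature B cells (583.82 to 880.15) and plasmacytoid dendritic cells (pDC, 468.96 to 825.88) lay below both and overlapped each other.

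In the HSPC sort erythroid progenitors (3649.4, 3792.5 and 3967.5 CPM) and monocyte progenitors (3065.9, 3619.4 and 3785.0) had the highest medians among classes with 6 libraries, and their ranges overlapped. Among the named classes neutrophil GMP-like cells (granulocyte-monocyte progenitors) followed at 3027.8, 3202.2 and 3278.3 CPM. HSC-like cells, the stem cells, many of which are quiescent, were at 1754.8, 1937.0 and 2159.3 CPM, below every library of the erythroid, monocyte, GMP-like and MPP-like (multipotent progenitor) classes. The clusters that could not be named from markers together held 2773.8, 3124.4 and 3405.1 CPM. Clusters among them with medians of 3247.9 and 3220.9 CPM lay above the GMP-like median. The sum over all unnamed clusters was 2832.7 ± 83.3 CPM under IACS, 3398.7 ± 9.1 under vehicle and 3124.4 ± 33.2 in WT (SD, n = 2 libraries each). These values came from 2389, 1482 and 894 cells, which were not tested gene by gene. In the plot of member sums by class each library is a point, so that the groups can be read within each class.

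**Figure D1:**
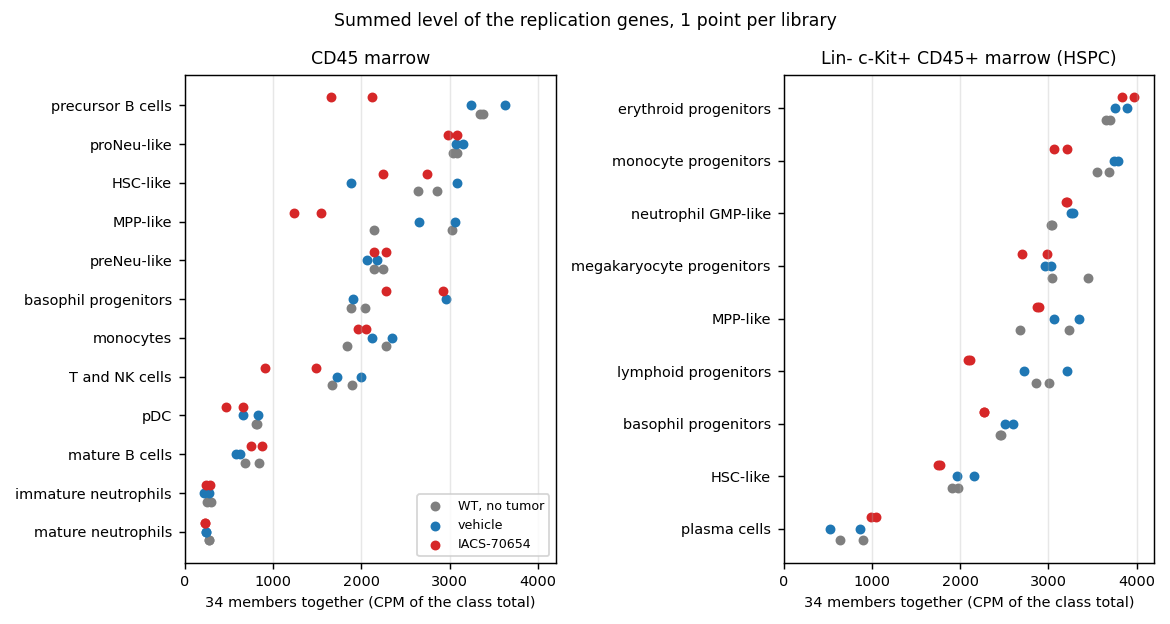
Summed level of the 34 members in CPM of the class total (horizontal axis) for each library (points, coloured by group). Classes that had all 6 libraries are shown, with the CD45 sort on the left and the HSPC sort on the right. Immature and mature neutrophils lie between 216.37 and 295.38 CPM, while proNeu-like cells lie between 2980.1 and 3147.2. In several classes, among them precursor B cells and HSPC monocyte progenitors, both IACS libraries sit below all vehicle and WT libraries.

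The members did not contribute evenly. In proNeu-like cells Dut gave 10.62% of the members' UMIs, Pcna 7.286%, Gmnn 6.098% and Rrm2 5.653%. In preNeu-like cells Pcna (8.637%), Rrm2 (8.612%) and Slbp (7.274%) led instead, and in mature neutrophils the few remaining UMIs came mostly from Rfc2 (20.84%), Slbp (18.52%) and Pcna (13.44%). Dut and Pola1 led in HSPC monocyte progenitors (9.882% and 6.981%) and in HSC-like cells (9.616% and 9.083%). Ung was the lowest member in both precursor classes.

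The label of the group was checked against cell cycle phase. Neutrophil precursors, that is proNeu-like and preNeu-like cells together, were assigned to G1, S or G2/M from 21 S genes that are not members and 51 G2/M genes, after thinning to 5000 UMIs. The member sum was 4324 and 4530 CPM in S under IACS, 4000 and 4184 under vehicle, and 4237 and 4228 in WT, against 1598 to 1732 CPM in G2/M and 2609 to 2857 in G1 over the 6 libraries. The members thus peaked in cells called S by other genes in all 6 libraries. Those 21 genes are what was left of Seurat's S list after its members were taken out. Many members come from that same list, so a peak in S was likely beforehand and is a weak check of the label.

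Calls of members under IACS-70654 were few and mostly lower. A member is called changed below where its edgeR log2 change exceeded 0.5 in either direction with an adjusted p under 0.01 (Benjamini-Hochberg over all genes tested in the class), the limits used in the study. Of the 13 marrow classes tested, 9 had a called member, and the called members were lower under IACS in every one of them except neutrophil precursors, a class that holds the proNeu-like and preNeu-like cells also tested on their own. In 5 of the 9 the share of members called was below that of all genes, which is given with each class. These were immature neutrophils, neutrophil precursors, preNeu-like, proNeu-like and megakaryocyte cells. In basophil and monocyte progenitors the share of members called was near that of all genes. The medians of the member log2 changes ran from -0.65 in precursor B cells and -0.33 in basophil progenitors, through -0.30 in HSC-like cells, -0.29 in monocyte progenitors and -0.22 in MPP-like cells, to -0.05 in neutrophil precursors and 0.01 in erythroid progenitors, while the median over all genes tested was between 0.00 and 0.02. The heat map shows every member in each class except neutrophil precursors, whose proNeu-like and preNeu-like parts have columns of their own.

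**Figure D2:**
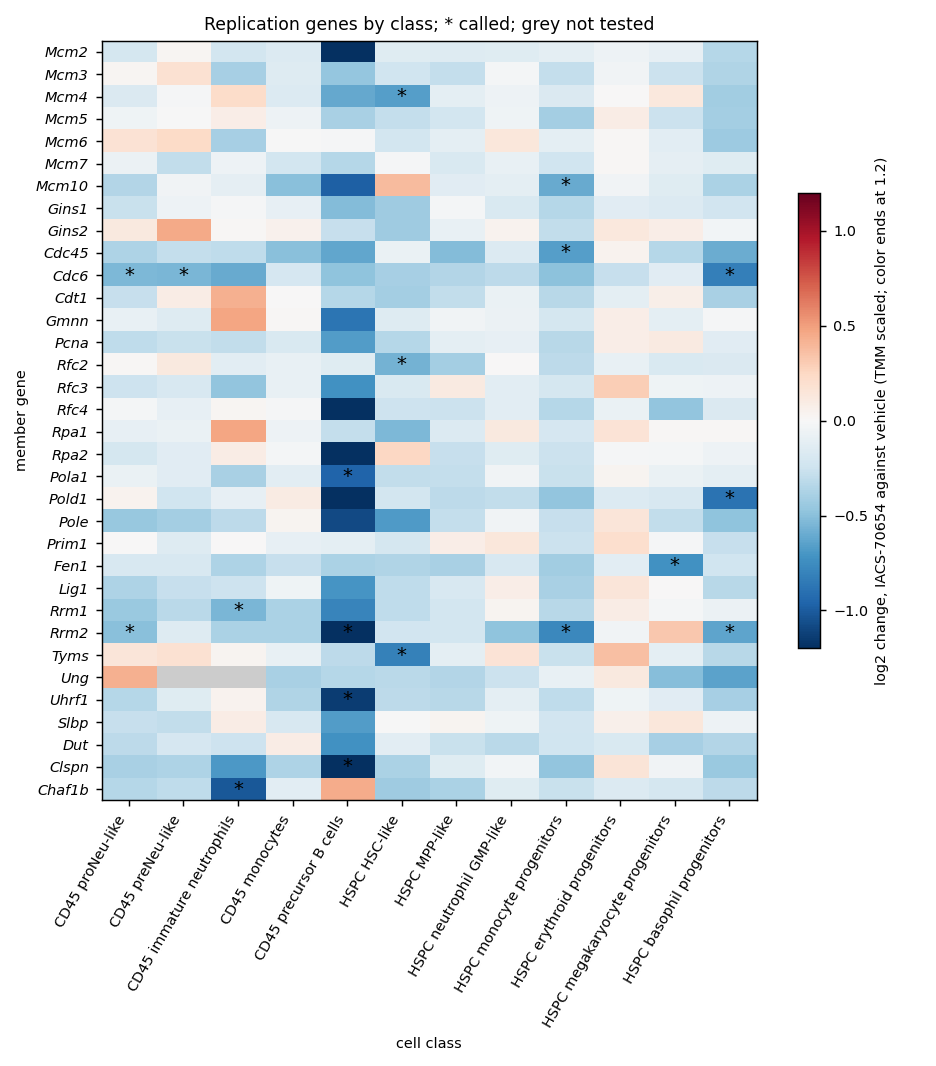
Log2 change of each member (rows) between IACS and vehicle in marrow classes (columns) after TMM scaling. Stars mark called members and grey marks members not tested. The colour scale ends at 1.2 in either direction. The monocyte progenitor column is blue in every row, and every starred member was lower under IACS. Neutrophil precursors, where Ung was called higher, have no column of their own.

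In neutrophil precursors of the CD45 sort 1 of 34 members was called, against 21.0% of all genes tested. That member was Ung, the uracil-DNA glycosylase, which rose in the class as a whole. Its level was 13.8 and 15.2 CPM under IACS, 5.62 and 6.03 under vehicle, and 9.10 and 12.5 in WT, so the IACS libraries lay above all others and the vehicle libraries below them (log2 change 1.05, SE 0.157, adjusted p = 3.3e-06). Ung was not called within proNeu-like cells and had too few UMIs to be tested in preNeu-like cells. ProNeu-like cells held most of the Ung and were 63.66% and 64.32% of this class under IACS against 39.61% and 38.1% under vehicle. The part of that mixture in the rise of Ung was not tested. Clusters made without integration of the libraries gave 0.19 for Ung (adjusted p = 0.62). No cluster was named preNeu-like there, so that value is of proNeu-like cells alone. Without vehicle replicate 1 the count of called members was 3.

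The next 5 members by size passed the adjusted p (9.1e-08 for Rrm2 to 1.9e-04 for Gins2) but not the size limit, and so were not called. Clspn, the checkpoint relay, was at 69.4 and 69.6 CPM under IACS, 78.9 and 82.1 under vehicle and 89.3 and 75.2 in WT (log2 change -0.48). Rrm1, the large subunit of ribonucleotide reductase, was at 96.7 and 99.9 CPM under IACS, 106.9 and 116.3 under vehicle and 105.8 and 101.6 in WT (-0.45). Rrm2, its small subunit, was at 173.8 and 178.6 CPM under IACS, 202.4 and 194.7 under vehicle and 161.8 and 155.2 in WT (-0.44). In all 3 the IACS libraries were below both vehicle libraries, and for Rrm2 they were above both WT libraries. Cdc6, which loads the MCM ring, was at 28.9 and 30.4 CPM under IACS, 33.8 and 32.5 under vehicle and 28.9 and 31.3 in WT (-0.42). Gins2, a GINS subunit, was at 34.5 and 35.4 CPM under IACS, 21.5 and 21.9 under vehicle and 26.3 and 25.6 in WT (0.42), above all other libraries.

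The scale matters in this class. TMM, the scaling used for all tests, sets most genes to no change, and with library totals instead the median of all genes shifted by 0.28. On that scale 4 members were called, all higher, namely Ung (1.31), Gins2 (0.69), Mcm6 (0.63) and Mcm3 (0.51). The member sum was 2725.5 and 2846.4 CPM under IACS, 2559.3 and 2518.8 under vehicle and 2607.3 and 2636.7 in WT, a log2 ratio to vehicle of 0.13 that became -0.13 with TMM. The direction of the sum in neutrophil precursors therefore depends on the scaling.

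The make-up of the class moved with treatment as well. ProNeu-like cells were 63.66% and 64.32% of the neutrophil precursors under IACS, 39.61% and 38.1% under vehicle, and 36.68% and 43.85% in WT. Since proNeu-like cells held more member RNA than preNeu-like cells in every group, the stages are given one by one. The log2 ratio of the member sum to vehicle was -0.034 within proNeu-like and 0.062 within preNeu-like cells, both with overlapping libraries, or -0.20 and -0.16 with TMM, both without overlap.

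Within proNeu-like cells 2 of 34 members were called, both lower, against 8.54% of all genes. Rrm2 was at 164.5 and 168.6 CPM under IACS, 204.3 and 216.8 under vehicle, and 145.6 and 146.2 in WT (log2 change -0.51, SE 0.057, adjusted p = 4.7e-08). The IACS libraries lay between the other groups, with no overlap. Cdc6 was at 35.1 and 33.1 CPM under IACS, 43.4 and 44.7 under vehicle, and 36.9 and 34.7 in WT (-0.54, SE 0.099, adjusted p = 1.1e-04), so IACS lay within or just below the WT values. With library totals the changes kept their direction at -0.34 for Rrm2 and -0.37 for Cdc6, under the size limit. The 1 member called on that scale was another, and it was higher. Rrm2 also came under the limit without vehicle replicate 2 (-0.48) and without IACS replicate 1 (-0.49), and Cdc6 without IACS replicate 2 (-0.49). Of 15 alternatives Rrm2 lost its call in 6 and Cdc6 in 3, and the smallest changes were -0.28 and -0.37. Ung was at 19.1 and 20.5 CPM under IACS, 12 and 14.2 under vehicle and 18.8 and 22.4 in WT (log2 change 0.43, adjusted p = 0.041), which was not called.

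Markers of other stages moved with treatment inside this class. Immature neutrophil markers summed to 10679 and 10982 CPM under IACS against 40000 and 43451 under vehicle, with all 5 genes lower, while proNeu markers summed to 34067 and 33651 against 21484 and 19812, with all 5 higher. Mitochondrial genes took 3.186% and 3.248% of UMIs under IACS and 3.922% and 3.906% under vehicle. Their part in the changes of Rrm2 and Cdc6 was not tested.

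In preNeu-like cells 1 of 33 members was called, against 8.83% of all genes. Ung had too few UMIs to be tested, at 1.59 and 2.68 CPM under IACS and 0.78 and 0.16 under vehicle. The called member, Cdc6, was at 14.8 and 23.9 CPM under IACS, 26.5 and 23.7 under vehicle, and 22.1 and 27.7 in WT (log2 change -0.55, SE 0.153, adjusted p = 0.0041). The upper IACS library lay within the vehicle range, and the call was lost without vehicle replicate 1 (-0.48, adjusted p = 0.035) and without IACS replicate 1 (-0.28, adjusted p = 0.27), with library totals (-0.33, adjusted p = 0.079), with cell cycle genes used for clustering (-0.46, under the size limit), in DESeq2, and with the replicate block (adjusted p = 0.011). Here proNeu markers stood at 2351.5 and 2535.6 CPM under IACS against 764.01 and 602.63 under vehicle, and immature neutrophil markers at 84206 and 83653 against 106680 and 109180. Without IACS replicate 2 the count of called members was 2.

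**Figure D3:**
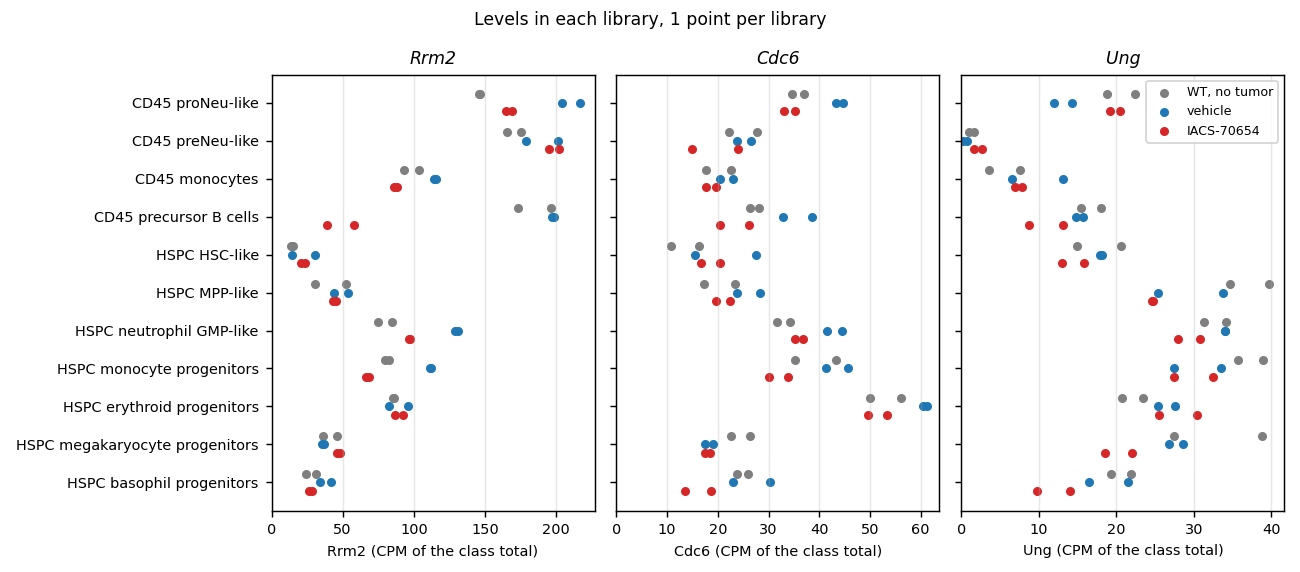
Level in CPM (horizontal axes, from 0) of Rrm2, Cdc6 and Ung in every library (points, coloured by group) in 11 marrow classes. In proNeu-like cells Rrm2 lies at 204.3 and 216.8 CPM under vehicle, above the IACS libraries at 164.5 and 168.6 and the WT libraries at 145.6 and 146.2.

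The share of neutrophil precursors in S phase, called from S genes that are not members, overlapped between IACS and vehicle at 5000 UMIs and without thinning but not at 3000 UMIs. At 5000 UMIs per cell it was 25.54% and 26.58% under IACS, 25.63% and 22.54% under vehicle, and 22.77% and 25.19% in WT, from 744 and 963, 636 and 763, and 527 and 532 cells. The difference between IACS and vehicle was 1.975 percentage points at that depth, -2.765 at 3000 UMIs and 0.455 without thinning, so its sign followed the depth chosen. At 3000 UMIs the shares were 18.16% and 21.61% under IACS, 23.28% and 22.02% under vehicle, and 22.18% and 20.22% in WT. With the whole S list, members included, the shares were 27.4% and 30.9% under IACS, 29.1% and 27.9% under vehicle, and 26.6% and 29.1% in WT, which also overlapped. Within proNeu-like cells the S share was 29.23% and 29.71% under IACS, below 35.43% and 31.86% under vehicle and within or below the 29.70% and 33.05% of WT, and within preNeu-like cells it was 18.87% and 20.77% against 19.11% and 16.67%, which overlapped, as they did not at 3000 UMIs (14.91% and 17.87% against 20.20% and 18.01%).

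G1 and G2/M shares lay apart in the 2 precursor stages combined. G1 held 37.90% and 36.55% of the precursors under IACS, 27.36% and 25.03% under vehicle, and 27.89% and 27.82% in WT, and G2/M held 36.56% and 36.86% under IACS against 47.01% and 52.42% under vehicle and 49.34% and 46.99% in WT. Within preNeu-like cells the same phases lay apart, with G1 at 19.62% and 18.99% under IACS against 13.87% and 16.45% under vehicle and G2/M at 61.51% and 60.24% against 67.02% and 66.88%. Within proNeu-like cells G1 and G2/M overlapped between IACS and vehicle at all 3 depths, while the S share was lower in both IACS libraries at each (-4.175 points at 5000 UMIs, -6.44 at 3000 and -7.245 without thinning). These shares were not tested. The shares sum to 100% in each library and move with the proNeu share, and the part of free RNA in the phase calls was not tested.

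When the precursors were compared phase by phase, 2 of 34 members were called in S phase, 1 in each direction, against 13.5% of all genes. Ung rose (1.19, adjusted p = 1.4e-04) and Cdc6 fell (-0.54, adjusted p = 8.6e-04). ProNeu-like cells, which held most of the Ung, were 140 of 190 and 186 of 256 of the S cells under IACS against 90 of 163 and 94 of 172 under vehicle, and the part of that mixture was not tested. Without vehicle replicate 2 the count in S phase was 4, and it was 1 without IACS replicate 1 and 1 without IACS replicate 2. In G1 edgeR called 0 of 34 against 5.73% of all genes, with 16 at an unadjusted p under 0.05, and the count was 3 without vehicle replicate 1 and 1 without IACS replicate 2. In G2/M 8 of 33 were called, all lower, against 19.2% of all genes in either direction and 8.55% lower. The cells in G2/M were a different mixture of stages, since 109 of 272 and 152 of 355 were proNeu-like under IACS against 43 of 299 and 87 of 400 under vehicle, and the part of that in these calls was not tested. They were Cdc6 (-1.09), the ligase Lig1 (-0.76), Pcna (-0.70), Cdt1 (-0.61), Pole (-0.58), Slbp (-0.56), Rfc3 (-0.55) and Clspn (-0.54), and their number was 5 without vehicle replicate 2 and 4 without IACS replicate 2.

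Other genes of replication and the cell cycle were followed in 7 lists, to be read against the 21.0% of all genes called in this class in either direction. The calls among origin genes (4 of 16) and among checkpoint and repair genes (4 of 16) were near that share. In neutrophil precursors the list of nucleotide supply genes moved most toward IACS, with 8 of 16 higher and 1 lower and a median log2 change of 0.54. Atic, of purine synthesis, rose by 1.37 (adjusted p = 9.7e-12), Shmt1, of the folate cycle, by 1.10 (3.6e-07) and Dctd, which feeds thymidylate synthesis, by 0.83 (0.0022). Of the 51 G2/M genes 14 were lower and 0 higher, with a median of -0.44, among them Cenpf (-0.77), Nusap1 (-0.77) and Kif23 (-0.71), which act at kinetochores and the spindle. Of 23 E2F and G1/S regulators 3 were higher and 5 lower. E2f2, an activating E2F, fell by 1.37 (adjusted p = 9.9e-16), E2f7, a repressing E2F, fell by 0.90 (6.0e-09) and Cdk6, the G1 kinase, rose by 1.17 (3.1e-15). Of 16 other origin genes 1 was higher and 3 lower (Ticrr -0.60, Orc2 0.55, Gins3 -0.55). Among the remaining lists 2 of 17 polymerase and fork genes were higher (Rnaseh2a 0.74, Pold2 0.63), 1 of 12 chromatin genes was lower (Asf1b -0.65), and 1 of 16 checkpoint and repair genes was higher and 3 lower (Brip1 -0.68 and Fancd2 -0.59 among the latter).

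Most of these calls were not made within a stage. In proNeu-like cells 0 of 50 G2/M genes were called and the median was -0.12, and in preNeu-like cells 0 of 51 with a median of -0.16. Nucleotide supply genes kept 2 higher and 1 lower in proNeu-like cells (Atic 0.77, Shmt1 0.63, Dck -0.62) and 1 higher in preNeu-like cells (Atic 2.12). E2f2 was lower in both stages (-1.38 and -0.72), as was Fancd2 in preNeu-like cells (-0.56), while Cdk6 was higher in both (0.68 and 0.77). In proNeu-like cells 6 of 23 E2F and G1/S regulators were lower and 1 higher, E2f7 (-0.77) and Cdc25a (-0.70) among the former. Brca1 (-0.59) and Brip1 (-0.51) were lower in proNeu-like cells, and Timeless (-0.62) and Asf1a (-0.51) in preNeu-like cells.

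In immature neutrophils, where the members were almost silent, 2 of 33 were called lower against 16.3% of all genes. Chaf1b, a subunit of the histone chaperone CAF-1, was at 3.38 and 3.79 CPM under IACS, 6.29 and 6.20 under vehicle, and 12.3 and 11.3 in WT (log2 change -1.02, SE 0.200, adjusted p = 5.6e-05). The 3 groups did not overlap. Rrm1 was at 10.0 and 10.9 CPM under IACS, 11.2 and 14.8 under vehicle and 10.5 and 6.79 in WT (-0.55, SE 0.143, adjusted p = 0.0017), and its call was lost without vehicle replicate 2 (-0.34, adjusted p = 0.12), IACS replicate 1 (-0.51, 0.024) or IACS replicate 2 (-0.62, 0.012). It turned to 0.56 in clusters made without integration, where no cluster was named preNeu-like and the count of called members in this class was 27, all higher, so the direction of the members in immature neutrophils depends on how the class was drawn. Without IACS replicate 1 the count of called members was 1. With library totals the median of all genes shifted by 0.25 and Chaf1b stayed lower at -0.79. In the same cells 20 of 50 G2/M genes were lower and 0 higher, with a median of -0.49 (Kif23 -0.83, Gas2l3 -0.83, Ube2c -0.78), while preNeu markers stood at 3424.3 and 3367 CPM under IACS against 2283.3 and 2409.6 under vehicle and their part was not tested. Of the other lists Atic was higher (1.47), and Dck (-0.68), Pclaf (-0.64), E2f2 (-0.62) and Orc6 (-0.54) were lower. One cluster held 28.0% and 24.2% of the immature neutrophils under IACS, 4.4% and 5.2% under vehicle and 1.5% and 0.7% in WT.

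In CD45 monocytes edgeR called 0 of 34 members, against 6.21% of all genes, with 10 at an unadjusted p under 0.05, and DESeq2 also called 0. The member furthest from 0 was Cdc45, of the active helicase, at 26.7 and 28.1 CPM under IACS, 39.2 and 39.5 under vehicle and 35.2 and 30.5 in WT (-0.50, adjusted p = 0.0043), just under the size limit. Rrm2 was at 88.2 and 86.2 CPM under IACS, 114.1 and 115.3 under vehicle and 103.9 and 93.1 in WT (-0.38, adjusted p = 5.0e-04). For both genes the IACS libraries were below the other 4. Among the lists, E2f2 was lower (-0.86) and so was the lamina-associated gene Tmpo (-0.50). The members in this class came from 1 cluster with 3112 to 3800 CPM, while 2 others held 285 to 594 CPM.

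Of the 13 marrow classes tested gene by gene, precursor B cells had the lowest ratio of the member sum to vehicle. The few MPP-like cells of the CD45 sort, not tested gene by gene, had a larger fall in the sum, to 1390.6 ± 209.6 CPM under IACS from 2854.8 ± 291.7 under vehicle, beside 2582.8 ± 622.5 in WT (SD, n = 2 libraries each), from 131, 58 and 92 cells. Of precursor B cells there were 28 and 35 such cells under IACS, 118 and 129 under vehicle and 450 and 435 in WT. The member sum was 2115.8 and 1651.9 CPM under IACS, 3622.5 and 3238.0 under vehicle, and 3342.5 and 3372.3 in WT, a log2 ratio to vehicle of -0.87 (-0.72 with TMM). Without IACS replicate 1 it was -1.05 and without IACS replicate 2 it was -0.69. Of 34 members 4 were called, all lower, against 5.16% of all genes. Rrm2 was at 39.2 and 58.3 CPM under IACS, 198.5 and 196.9 under vehicle and 173.1 and 196.2 in WT (-1.85, SE 0.240, adjusted p = 1.3e-04). Clspn was at 42.5 and 46.6 CPM under IACS, 139.5 and 105.6 under vehicle and 100.6 and 104.1 in WT (-1.29, SE 0.269, adjusted p = 0.0054).

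Uhrf1, which recruits the maintenance methyltransferase, was at 55.6 and 61.2 CPM under IACS, 150.9 and 136.9 under vehicle and 155.9 and 156.6 in WT (-1.14, SE 0.225, adjusted p = 0.0038). Pola1, the primase-bound polymerase, was at 101.4 and 96.1 CPM under IACS, 239.5 and 189.7 under vehicle and 180.4 and 202.7 in WT (-0.96, SE 0.201, adjusted p = 0.0055). In Rrm2, Clspn, Uhrf1 and Pola1 both IACS libraries lay below all others. Only Rrm2 stayed called without vehicle replicate 1, which left 1 called member. Clspn and Pola1 were also lost without IACS replicate 1 (adjusted p = 0.027 and 0.016), and Uhrf1 without vehicle replicate 2 (0.013) or IACS replicate 1 (0.028). G2/M genes fell with them, 12 of 50 lower and 0 higher with a median of -1.19 (Cdca2 -2.55, Tacc3 -2.31, Bub1 -2.17), and so did Ccna2 (-2.03), E2f2 (-1.41), Pclaf (-1.83) and Rrm2b (-1.47), whereas the G1 cyclin Ccnd2 rose by 2.18 and Cdk6 by 1.40.

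The make-up of the precursor B class differed as well. Its cluster with the highest member level (5253 to 6719 CPM) held 3.57% and 11.43% of the class under IACS, 24.58% and 20.16% under vehicle and 22.89% and 23.68% in WT. Another cluster held 42.86% and 37.14% under IACS and 11.86% and 12.40% under vehicle. Plasma cell markers stood at 2057 and 11735 CPM under IACS against 451 and 568 under vehicle, and precursor B markers at 6331 and 7875 against 11676 and 11048. Their part in the lower member levels was not tested. Drawn from clusters made without integration, the class had 0 called members.

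In HSPC monocyte progenitors all 34 members had a lower fitted level under IACS than under vehicle. At an adjusted p under 0.05 with no minimum size 32 of 34 were lower, against 14.6% of all genes called lower by the same rule. At the stricter limits 3 of 34 were called, all lower, against 7.76% of all genes in either direction. The member sum was 3206.1 and 3065.9 CPM under IACS, 3741.9 and 3785.0 under vehicle and 3691.3 and 3547.5 in WT, that is 3136.0 ± 99.1 under IACS, 3763.4 ± 30.5 under vehicle and 3619.4 ± 101.7 in WT (SD, n = 2 libraries each). Both IACS libraries lay below the other 4. The log2 ratio to vehicle was -0.26, or -0.31 with TMM, with an SD of 0.036 between replicate libraries.

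Rrm2 was the member with the largest fall. It was at 68.2 and 66.1 CPM under IACS, 111.3 and 111.9 under vehicle, and 79.8 and 82.6 in WT (log2 change -0.77, SE 0.061, adjusted p = 1.1e-14). The 3 groups did not overlap, with vehicle highest and IACS lowest. Cdc45 was at 31.2 and 26.8 CPM under IACS, 44.7 and 46.4 under vehicle and 40.0 and 35.8 in WT (-0.66, SE 0.094, adjusted p = 1.9e-07). Mcm10, which helps to activate the helicase, was at 28.6 and 33.9 CPM under IACS, 46.9 and 41.6 under vehicle and 46.7 and 42.6 in WT (-0.60, SE 0.096, adjusted p = 1.9e-06). For both genes the IACS libraries lay below all others and vehicle overlapped or exceeded WT. Rrm2 and Cdc45 stayed called under all 15 alternatives, while Mcm10 fell under the size limit without vehicle replicate 1 (-0.49) and without IACS replicate 1 (-0.45). Without IACS replicate 1 the count of called members was 7.

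The remaining members followed by role. The loader Cdc6 was at 33.8 and 30.02 CPM under IACS, 45.7 and 41.4 under vehicle and 35.2 and 43.4 in WT, at the edge of the size limit (-0.50, adjusted p = 5.4e-05). Clspn (-0.47), the polymerase subunit Pold1 (-0.47), the flap nuclease Fen1 (-0.42) and Mcm5 (-0.41) came next. The 2 members that did not pass the adjusted p of 0.05 were Mcm2 (-0.12, adjusted p = 0.22) and Ung (-0.09, adjusted p = 0.58).

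The share of monocyte progenitors with at least 3 members detected, after thinning to 2000 UMIs, was 77.4% and 78.2% under IACS, 92.2% and 93.4% under vehicle and 91.9% and 90.4% in WT. The difference from vehicle passed edgeR's test on cell numbers (adjusted p = 0.00024 over 9 classes). It kept its direction but did not pass at 3000 UMIs (-10.18 percentage points), without thinning (-3.186) or for at least 2 members (-9.329). The same measure in CD45 mature neutrophils, which do not divide, was 0.62% to 1.68%, but those cells come from the other sort, and the share that free RNA gives in the HSPC libraries was not measured.

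Markers and clusters moved with the fall. Monocyte progenitor markers stood at 1210 and 1246 CPM under IACS against 2046 and 2076.5 under vehicle, with 6 of 6 lower, and monocyte markers at 1486 and 1522 against 2240.5 and 2254, with 6 of 7 lower. HSC markers stood at 299 and 266 against 158 and 148, and MPP markers at 502 and 535 against 372 and 360. The class had 2 clusters, and the member sum was lower under IACS in both. In the one that held 50.5% and 50.8% of the class under IACS and 61.9% and 61.9% under vehicle, it was 3617 and 3335 CPM under IACS, 3891 and 3942 under vehicle and 3915 and 3743 in WT. In the other it was 2646 and 2670 CPM under IACS, 3487 and 3524 under vehicle and 3362 and 3239 in WT. The part of the shifts in markers and clusters in the lower member levels was not tested.

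Lists outside the members had few calls by the stricter limits here. Pclaf, which binds Pcna, fell by 0.68 (adjusted p = 5.3e-21), Tk1, the thymidine kinase, by 0.51, Brca1 by 0.56 and Fancd2 by 0.54. None of the 51 G2/M genes and none of the 23 E2F and G1/S regulators was called. The members were not alone in lying below 0. Their median was -0.29 with 0 of 34 above 0, beside -0.24 with 0 of 12 for the other chromatin genes, -0.23 with 0 of 16 for checkpoint and repair, -0.20 with 1 of 17 for other polymerase and fork genes, -0.17 with 2 of 16 for nucleotide supply, -0.12 with 1 of 16 for other origin genes, -0.27 with 7 of 23 for E2F and G1/S regulators and -0.16 with 11 of 51 for G2/M genes. The differences between these lists were not tested.

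**Figure D4:**
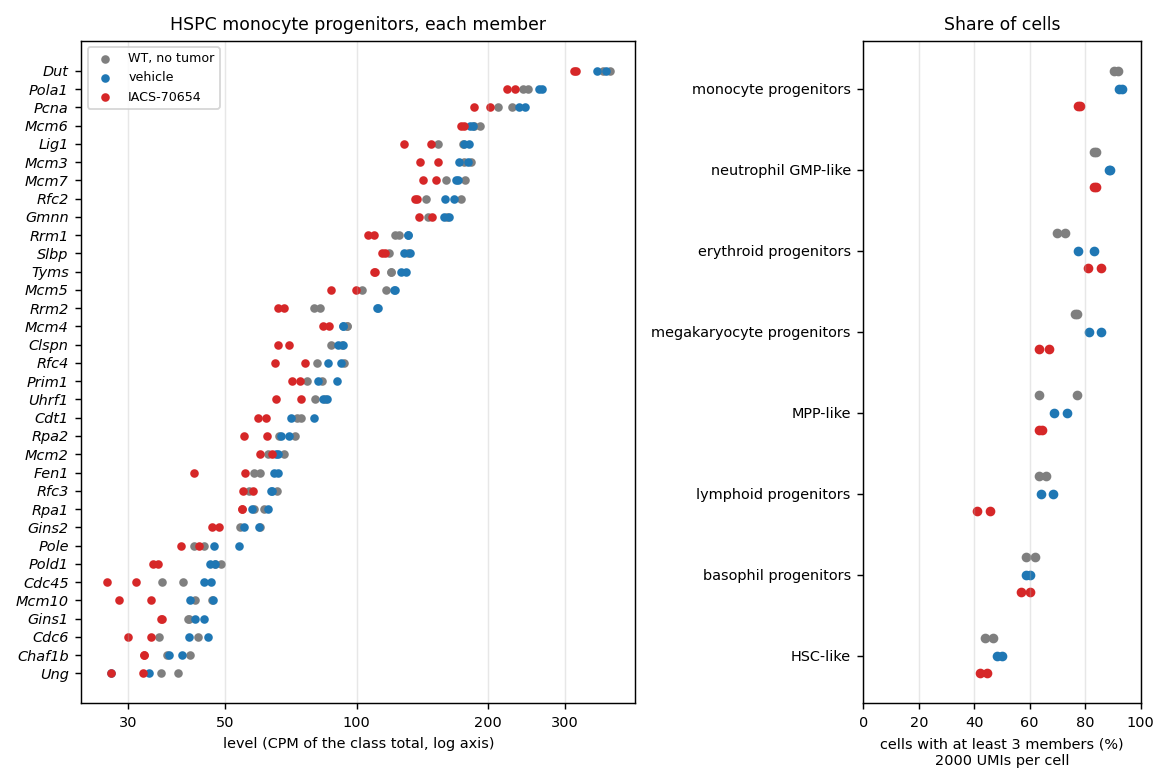
Left, level of every member in HSPC monocyte progenitors in CPM (log axis) for each library, coloured by group. Right, share of cells (percent) with at least 3 members detected at 2000 UMIs in 8 HSPC classes, 1 point a library, with monocyte progenitors at 77.4% and 78.2% under IACS against 92.2% and 93.4% under vehicle.

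HSC-like cells had 3 of 34 members called, all lower, against 1.63% of all genes. Tyms, thymidylate synthase, was at 36.2 and 43.7 CPM under IACS, 72.0 and 58.3 under vehicle, and 57.4 and 47.4 in WT (-0.81, SE 0.171, adjusted p = 2.2e-04). Mcm4 was at 35.8 and 42.3 CPM under IACS, 58.0 and 61.9 under vehicle and 47.7 and 37.9 in WT (-0.66, SE 0.178, adjusted p = 0.0079), overlapping WT. Rfc2, of the clamp loader, was at 97.5 and 109.9 CPM under IACS, 145.8 and 152.4 under vehicle and 146.2 and 150.2 in WT (-0.57, SE 0.116, adjusted p = 1.4e-04), below all other libraries. The call of Tyms was lost without vehicle replicate 1 (adjusted p = 0.25) or IACS replicate 1 (0.085), that of Rfc2 without the same libraries (0.010 and 0.081), and that of Mcm4 without any one of the 4 (0.014 to 0.28), so that 0 members were called without vehicle replicate 1 or IACS replicate 1. With cell cycle genes used for clustering Tyms moved to -0.20 and Mcm4 to -0.25, and no member, Rfc2 included, was called. Over the alternatives the smallest changes were -0.037 for Tyms and -0.14 for Rfc2. DESeq2 called 0, but it gave 29 of the 34 members no adjusted p. The member sum was 1754.8 and 1772.0 CPM under IACS, 2159.3 and 1966.0 under vehicle and 1976.4 and 1907.9 in WT, a log2 ratio to vehicle of -0.22. That ratio was -0.072 with cell cycle genes used for clustering and turned to 0.064 in clusters made without integration. Within the 2 main clusters of the class the sum was lower under IACS, at 1703 and 1622 against 2050 and 1890 CPM in one and 2294 and 2847 against 3426 and 3224 in the other. Of 46 G2/M genes 3 were lower (Cdca2 -0.93, Gas2l3 -0.85, Mki67 -0.51), as was Dctd (-0.80).

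Basophil progenitors had 3 of 34 members called, all lower, against 8.39% of all genes. The member sum was 2269.4 ± 0.14 CPM under IACS, 2548.6 ± 64.6 under vehicle and 2461.5 ± 6.6 in WT (SD, n = 2 libraries each). Pold1 was at 17.6 and 24.8 CPM under IACS, 34.8 and 35.3 under vehicle and 32.5 and 34.5 in WT (-0.89, SE 0.203, adjusted p = 2.1e-04). Cdc6 was at 13.5 and 18.6 CPM under IACS, 23.0 and 30.3 under vehicle and 23.9 and 25.9 in WT (-0.82, SE 0.233, adjusted p = 0.0043). Rrm2 was at 26.4 and 28.4 CPM under IACS, 41.5 and 34.2 under vehicle and 31.0 and 24.6 in WT (-0.63, SE 0.185, adjusted p = 0.0057). Pold1 and Cdc6 lay below all vehicle and WT libraries, whereas Rrm2 overlapped WT. All 3 calls were lost without IACS replicate 1 (adjusted p = 0.20, 0.37 and 0.20), after which 1 other member was called, Cdc6 was lost without vehicle replicate 2 (0.047), and Rrm2 without vehicle replicate 1 (0.31) or IACS replicate 2 (0.019). Basophil markers stood at 4523 and 3934.9 CPM under IACS against 9980.5 and 10379 under vehicle, and their part was not tested. The count was 8 with cell cycle genes used for clustering and 12 in clusters made without integration, all lower, and 0 in DESeq2. Of the other lists Dna2, a helicase-nuclease of the fork, fell by 1.06, E2f8 by 0.82 and Tfdp1 by 0.51, while 2 of 50 G2/M genes rose (G2e3 0.94, Kif23 0.68), as did Rbl2 (0.60) and Samhd1 (0.52).

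In megakaryocyte progenitors 1 of 34 members was called against 6.21% of all genes. Fen1 was at 37.1 and 25.0 CPM under IACS, 53.9 and 45.2 under vehicle and 40.7 and 44.8 in WT (-0.73, SE 0.166, adjusted p = 3.5e-04). It was not called without vehicle replicate 1 (adjusted p = 0.19) or IACS replicate 2 (0.031), which left 0 called members, and without IACS replicate 1 the count was 2. The share of these cells with at least 3 members was 66.8% and 63.3% under IACS, 81.3% and 85.8% under vehicle and 76.4% and 77.2% in WT (adjusted p = 0.0032), while the member sum of 2980.7 and 2702.3 CPM under IACS overlapped the 2962.2 and 3028.5 CPM of vehicle. Without vehicle replicate 1 the difference in share was -20.8 percentage points and did not pass, as also at 3000 UMIs (-8.882), without thinning (-10.81) or for at least 2 members (-9.852). The G1 cyclins Ccnd1 (-1.84) and Ccnd2 (-0.77) fell, and so did E2f3 (-0.66), Tfdp1 (-0.54), Dctd (-0.63), Dctpp1 (-0.62), Ctps (-0.60) and Cdca7 (-0.51).

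Single genes were not tested in lymphoid progenitors. Their member sum was 2116.7 and 2088.5 CPM under IACS, 2717.6 and 3209.3 under vehicle and 2861.7 and 3006.0 in WT, and their share of cells with at least 3 members was 45.5% and 40.9% against 68.3% and 64.2% and against 65.9% and 63.3% (adjusted p = 0.0032). Without vehicle replicate 1 the difference of -21.0 points did not pass, nor did that at 3000 UMIs (-14.84), without thinning (-11.02) or for at least 2 members (-13.06).

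In 3 HSPC classes edgeR called no member, and DESeq2 called 0 in each as well. In MPP-like cells 0 of 34 were called against 2.97% of all genes (DESeq2 left 4 members without an adjusted p), with 16 at an unadjusted p under 0.05 and Cdc45 (-0.52, adjusted p = 0.069) and Rfc2 (-0.41) furthest from 0. With cell cycle genes used for clustering 8 members were called in MPP-like cells, and with clusters made without integration 14, all lower. In neutrophil GMP-like cells 0 of 34 were called against 6.63%, with 18 at an unadjusted p under 0.05. Rrm2 there was at 97.4 and 96.4 CPM under IACS, 129.0 and 130.8 under vehicle and 84.9 and 74.9 in WT, 0.48 lower than vehicle (adjusted p = 1.4e-12) but under the size limit, and Dut (-0.32) and Cdc6 (-0.31) followed. In erythroid progenitors 0 of 34 were called against 7.19%, with 12 at an unadjusted p under 0.05. Tyms lay highest there, at 156.0 and 162.0 CPM under IACS, 123.0 and 119.6 under vehicle and 118.3 and 121.2 in WT (0.36, adjusted p = 8.6e-11), above all other libraries. In the same 2 last classes some G2/M genes rose, 4 of 51 in GMP-like cells (Kif23 0.75, Nusap1 0.75, Mki67 0.56) and 3 of 51 in erythroid progenitors (Gas2l3 0.69, Psrc1 0.64, Kif23 0.60), beside the 6.63% and 7.19% of all genes called in either direction. In erythroid progenitors E2f7 rose (0.93) and Ccnd1 (-1.27) and Ccnd2 (-0.52) fell, and in MPP-like cells Tfdp1 fell (-0.57). Pclaf rose in both GMP-like and erythroid cells (0.56 and 0.77), where in monocyte progenitors it fell, a contrast between classes that was not tested.

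Mice with and without the tumor were compared by setting vehicle against WT. The WT mice were untreated, so tumor and vehicle dosing cannot be told apart here. These values share the vehicle libraries with those above. Rrm2 was the member that rose most clearly. In proNeu-like cells, with 1 of 34 members called against 3.96% of all genes, it rose by 0.65 (SE 0.066, adjusted p = 2.4e-08), and in neutrophil GMP-like cells, with 1 of 34 called against 2.14%, by 0.68 (SE 0.067, adjusted p = 9.6e-12). Both calls were kept under all 15 alternatives. In neutrophil precursors 1 of 34 was called against 4.69%. It was Ung, which fell by 0.72 (SE 0.186, adjusted p = 0.0066), and the call was lost without WT replicate 2 (-0.47, adjusted p = 0.19), vehicle replicate 1 (-0.68, 0.061) or vehicle replicate 2 (-0.77, 0.048). The count was 2 without WT replicate 1 and 0 without WT replicate 2 or vehicle replicate 1. In immature neutrophils 2 of 33 were called against 6.27%, with Rrm1 higher (0.82, adjusted p = 4.0e-04) and Chaf1b lower (-0.69, adjusted p = 0.0034). Rrm1 was lost without WT replicate 2 (0.060) or vehicle replicate 2 (0.023), and Chaf1b without WT replicate 1 (0.059), WT replicate 2 (0.017) or vehicle replicate 2 (0.023), which left 1 called member without WT replicate 1 and 0 without WT replicate 2 or vehicle replicate 2.

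In the other 9 marrow classes neither edgeR nor DESeq2 called a member between vehicle and WT. The shares of all genes called by edgeR were 2.7% in preNeu-like cells, 1.12% in monocytes, 0.378% in precursor B cells, 0.653% in HSC-like cells, 0.623% in MPP-like cells, 1.31% in monocyte progenitors, 2.1% in erythroid progenitors, 1.17% in megakaryocyte progenitors and 1.75% in basophil progenitors. The members at an unadjusted p under 0.05 numbered 6, 5, 1, 3, 2, 4, 8, 8 and 4 in the same order. DESeq2 gave no adjusted p to 25 of 34 members in HSC-like cells, 20 in basophil progenitors, 17 in MPP-like cells, 13 in megakaryocyte progenitors and 1 in monocytes. Without WT replicate 1 there was 1 called member in monocytes and 1 in MPP-like cells.

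Among the other lists, G2/M genes were called higher in vehicle than in WT, and none lower, in 6 classes. They were 13 of 50 in immature neutrophils (Tpx2 0.89, Cenpe 0.86, Nusap1 0.85), 11 of 51 in megakaryocyte progenitors (Ube2c 0.70, Cenpf 0.69, Nusap1 0.68), 3 of 46 in HSC-like cells (Nusap1 0.91, Mki67 0.84, Smc4 0.57), 2 of 50 in MPP-like cells (Bub1 1.28, Cdca8 0.63), 2 of 50 in basophil progenitors (Ube2c 0.58, Nusap1 0.55) and 1 of 50 in proNeu-like cells (Hmmr 0.65). The shares of all genes called in either direction, in the same order, were 6.27%, 1.17%, 0.653%, 0.623%, 1.75% and 3.96%. In proNeu-like cells the share of G2/M genes was thus below that of all genes. No G2/M gene was called in the other marrow classes tested. Ccnd2, a G1 cyclin, was lower in neutrophil precursors (-1.197), proNeu-like cells (-1.05) and monocyte progenitors (-0.70). Cdk6 was lower in immature neutrophils (-0.71), neutrophil precursors (-0.51) and preNeu-like cells (-0.72). Higher regulators included Ccna2 in immature neutrophils (0.62), Ccne1 in neutrophil precursors (0.60) and proNeu-like cells (0.74), E2f7 in proNeu-like cells (0.90) and E2f8 in basophil progenitors (0.51). Outside these lists no list had more than 1 called gene in a class. These were Dck, higher in immature neutrophils (0.61) and proNeu-like cells (0.56), Pclaf, higher in immature neutrophils (0.79) and MPP-like cells (0.54), and Atic (-0.59) and Atr (-0.61), lower in neutrophil precursors.

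In the tumors each condition had 1 library, so no difference has a replicate check, intervals cover counting error only, and a member is counted where both libraries together held at least 20 UMIs and its log2 ratio passed 0.5. The members were far lower than in marrow progenitors, with sums of 586.46 to 967.87 CPM in tumor-associated macrophages (TAM), 523.02 to 681.5 in tumor cells, 425.67 to 581.49 in tumor-associated neutrophils (TAN) and 630.47 to 1224.9 in T and NK cells. Dut led in tumor cells (15.22% of member UMIs) and Pcna in TAM (13.13%).

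TAM had opposite signs in the IACS and the anti-PD-1 libraries. The member sum was 753 CPM under vehicle, 586 under IACS, 613 under the combination and 968 under anti-PD-1, from 672, 2419, 2230 and 523 cells. Under IACS 17 of 34 members were past the limit and lower and 0 higher, against 11.2% of all genes lower and 11.1% higher. Cdc6 was at 1.93 CPM against 5.51 under vehicle (log2 ratio -1.51, 95% interval -2.30 to -0.72), Pole at 2.66 against 5.72 (-1.10, -1.82 to -0.37), Mcm2 at 8.22 against 15.7 (-0.94, -1.35 to -0.51) and Mcm5 at 12.8 against 24.1 (-0.92, -1.25 to -0.58). None of these intervals reached 0.

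Under the combination 13 of 34 members were lower and 0 higher in TAM, against 11.3% lower and 10.4% higher, led by Cdc6 (-1.56), Gins1 (-0.89), Mcm5 (-0.84) and Mcm2 (-0.78). Under anti-PD-1 11 were higher and 0 lower, against 7.58% higher and 5.31% lower. Mcm10 was at 5.84 CPM against 2.45 (1.25, 0.15 to 2.42), Clspn at 20.7 against 8.78 (1.24, 0.67 to 1.82), Rrm2 at 26.3 against 11.2 (1.23, 0.73 to 1.74) and Tyms at 26.6 against 15.3 (0.80, 0.34 to 1.26). With TMM scaling 6 stayed past the limit, all higher.

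The clusters of TAM differed between the libraries, so these values compare mixtures. A cluster led by Cd74 and H2-Ab1 held 39.4% of TAM under vehicle and 40.3% under anti-PD-1 but 1.9% under IACS and 1.7% under the combination, and one led by Apoe and C1qa held 36.9% under IACS, 39.2% under the combination and 8.2% in each of the others. Within clusters the member sum under IACS was below vehicle in 4 (473 against 647, 439 against 735, 456 against 524 and 411 against 706 CPM) and above it in 2 (999 against 820 and 869 against 811 CPM).

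**Figure D5:**
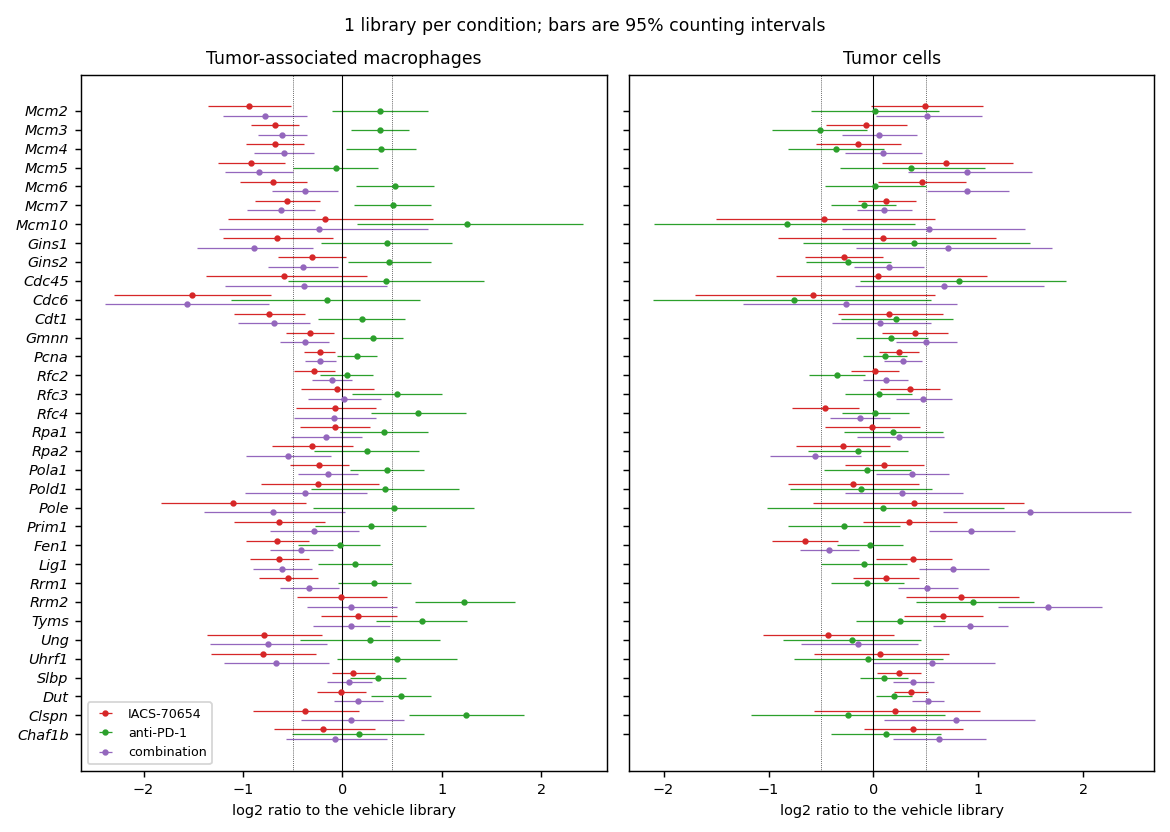
Log2 ratio to vehicle of each member with at least 20 UMIs in TAM and in tumor cells (points, with 95% counting intervals as bars) for the IACS, anti-PD-1 and combination libraries, with dotted lines at 0.5 in either direction. In TAM Cdc6 lies at -1.51 under IACS and Clspn at 1.24 under anti-PD-1, and in tumor cells Rrm2 lies at 1.66 under the combination.

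In tumor cells Rrm2 was higher than vehicle in all 3 treated libraries. It was at 6.09 CPM under vehicle, 10.8 under IACS (0.83, 95% interval 0.31 to 1.39), 11.8 under anti-PD-1 (0.95, 0.40 to 1.53) and 19.3 under the combination (1.66, 1.18 to 2.18). Under IACS 3 of 34 members were past the limit and higher and 2 lower, against 17.9% and 8.86% of all genes. Mcm5 (0.69) and Tyms (0.66) were the other higher members, Fen1 was lower at 15.2 against 23.9 CPM (-0.65, -0.97 to -0.34) and Cdc6 at a ratio of -0.57. Under anti-PD-1 2 were higher and 3 lower, against 6.89% and 6.13%, with Mcm10 at -0.82, Cdc45 at 0.82, Cdc6 at -0.75 and Mcm3 at -0.51. When cells with more than 6000 genes were kept, 0 members were higher in either library, Rrm2 included, with 4 lower under IACS and 5 lower under anti-PD-1, and the log2 ratio of the member sum under IACS went from 0.16 to -0.019.

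Under the combination 17 members were higher and 1 lower in tumor cells, against 18.0% and 9.6% of all genes, or 11 higher and 2 lower with TMM scaling. Pole (1.5), Prim1 (0.93), Tyms (0.92), Mcm5 (0.90) and Mcm6 (0.90) followed Rrm2. The count also rests on the limit on genes per cell. When cells with more than 6000 genes were kept it was 2 higher and 2 lower. The clusters differed too, 1 holding 49.5% and 48.6% of tumor cells under vehicle and anti-PD-1 but 0.98% and 2.2% under IACS and the combination.

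In the smaller tumor classes the ratios between IACS and vehicle scattered widely in all genes. In T and NK cells (150 against 100 cells) 0 of 17 members were higher and 11 lower, against 37.9% of all genes past the limit in either direction, with Cdt1 (-2.34), Mcm7 (-2.01), Mcm5 (-1.65) and Mcm4 (-1.27) furthest. In tumor monocytes 5 of 29 were higher and 7 lower against 31.4% (Gins1 -2.19, Ung 1.75, Rpa2 -0.98, Pola1 -0.91). In dendritic cells (DC) 3 of 18 were higher and 9 lower against 39.7% (Rrm2 -2.33, Mcm5 1.56, Rfc4 -1.50, Tyms -1.35). In TAN only 4 members reached 20 UMIs, and 1 was past the limit, Mcm4 at a ratio of 0.69, against 38.4% of all genes. Without the highest doublet scores 0 of 3 were higher and 2 lower, and with cell cycle genes used for clustering 0 of 3 were past the limit.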

How the data were processed

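The deposited files are UMI counts per gene and barcode, which the authors made with Cell Ranger multi (3′ chemistry, CellPlex demultiplexing; file headers 7.1.0 for tumors and 7.2.0 for marrow, genome mm10 per the labels). No column of the files was left without a sample (0 unused). Cells needed over 200 and under 6000 detected genes and at most 10% mitochondrial UMIs. The study states these limits in read counts and adds a limit on UMIs, which was not applied. Within each marrow sort the libraries were integrated on 2000 variable genes and 30 components (Seurat 5.3.0), with cell cycle genes left out. Cells were then clustered by Leiden (leidenalg 0.10.2, 20 neighbours). Clusters were named X-like from fixed marker lists. Scrublet (run in scanpy 1.11.5) marked under 0.5% of cells by its own threshold in 15 of 16 libraries (1.92% in CD45 WT replicate 1). Cells with the highest 5% of scores were therefore left out only as an alternative.

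UMI counts were summed per class and library, and 13 chosen classes, each with at least 20 cells in every library, were tested with edgeR 4.0.16 (quasi-likelihood, filterByExpr, TMM, Benjamini-Hochberg over all genes tested, all 6 libraries of a sort in 1 fit). DESeq2 1.42.0 was an alternative. Other classes that reached 20 cells, such as mature neutrophils and lymphoid progenitors, were given as sums and shares and not tested gene by gene. On simulated data for neutrophil precursors (11914 genes, 200 changed) 80.4% of 2-fold and 63.3% of 1.5-fold changes were recovered, with 3 unchanged genes called. Unlike the real groups, the simulated ones had no shift in scale or class make-up, so these rates do not cover errors from that. Tumor ratios carry exact 95% counting intervals. UMIs mark molecules, and intervals cover counting error only. Phases followed the rule of Seurat's cell cycle scoring. Promoters came from the RefSeq table of GRCm38.p6 by symbol.

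Named were, by rule, every called member and the largest changes up to 6 in neutrophil precursors, up to 4 called members in other classes, up to 6 members with at least 20 UMIs in tumor cells and up to 4 in other tumor classes, and up to 3 called genes of each other list. Members named beyond this rule (uncalled members in monocytes, MPP-like, GMP-like and erythroid cells, and Cdc6, Clspn, Pold1, Fen1, Mcm5, Mcm2 and Ung in other classes) were chosen after their values were seen. The members, lists and tests were chosen with earlier results of these data known. Alternatives changed the scaling, test, filter, call limits, cells, clustering genes, thinning depth and libraries. Clusters without integration, TMM scaling of the member sum, the whole S list and member sums by cluster were added after seeing the data. Called genes past the first 3 of a list are in the counts, and 1 that the rule would name is not reported here.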

Additional observations from a re-analysis of the deposited data

How the results depend on the processing

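Between IACS and vehicle, called members numbered as follows under other settings. At an adjusted p under 0.05 with no minimum change they were 6 in immature neutrophils, 5 in monocytes, 18 in neutrophil precursors (6 higher, 12 lower), 10 in preNeu-like, 16 in proNeu-like (1 higher, 15 lower), 11 in precursor B, 4 in MPP-like, 11 in basophil, 7 in erythroid (5 higher, 2 lower), 3 in megakaryocyte, 32 in monocyte progenitor and 9 in GMP-like cells (2 higher, 7 lower). With DESeq2 they were 1 in immature neutrophils, 1 in precursor B cells and 0 in preNeu-like, HSC-like, basophil and megakaryocyte cells. With library totals they were 1 in monocytes, 4 in neutrophil precursors, 8 in precursor B cells, 1 (higher) in proNeu-like cells and 1 in basophil progenitors. With no filter on low counts they were 0 in precursor B and 1 in proNeu-like cells, with only the 4 libraries compared 1 in precursor B cells, with no upper gene limit 1 in proNeu-like cells, and without the highest doublet scores 1 in basophil progenitors. With cell cycle genes used for clustering they were 1 in proNeu-like, 0 in HSC-like, 8 in MPP-like, 8 in basophil and 1 in GMP-like cells, and without integration 27 in immature neutrophils (all higher), 0 in precursor B, 1 in proNeu-like, 0 in HSC-like, 14 in MPP-like, 12 in basophil and 1 in GMP-like cells. Without integration Rrm1 in immature neutrophils turned to 0.56 and Mcm4 in HSC-like cells to 0.010. The cause was not tested.

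The replicate block gave 0 in preNeu-like cells and changed no other count of called members by more than 1.5 times. The numbers do not pair the libraries, since correlations of same-numbered deviations ran from -0.25 to 0.18.

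Between vehicle and WT, the limit of 0.05 gave 5 in immature neutrophils, 8 in neutrophil precursors, 2 in preNeu-like, 6 in proNeu-like, 2 in erythroid, 3 in megakaryocyte, 1 in monocyte progenitor and 9 in GMP-like cells. DESeq2 gave 0 in immature neutrophils and 0 in neutrophil precursors, no upper gene limit gave 0 in neutrophil precursors and 1 in megakaryocyte progenitors, and cell cycle genes in clustering gave 1 in MPP-like cells.

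The log2 ratio of the member sum in neutrophil precursors was -0.13 with TMM, -0.14 with RLE, 0.10 with cell cycle genes in clustering and -0.12 without integration, where no cluster was named preNeu-like and the class held proNeu-like cells alone. In precursor B cells it was -0.71 with RLE and -0.56 without integration, and in monocyte progenitors -0.31 with TMM, -0.31 with RLE and -0.20 with cell cycle genes in clustering. The differences in share, in percentage points, that no longer passed were, at 3000 UMIs, without thinning and for at least 2 members in turn, -14.84, -11.02 and -13.06 in lymphoid, -8.882, -10.81 and -9.852 in megakaryocyte and -10.18, -3.186 and -9.329 in monocyte progenitors, and -12.2 in megakaryocyte progenitors with cell cycle genes in clustering. In G1 precursors 2 members were called at 3000 UMIs and 2 without thinning. In tumor cells under IACS 8 members passed with TMM and 8 without the highest doublet scores.

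Leaving out 1 library at a time gave, between IACS and vehicle, 1 to 3 called members in immature neutrophils, 1 to 3 in neutrophil precursors, 0 to 2 in preNeu-like, 1 to 5 in precursor B, 0 to 2 in HSC-like, 1 to 2 in basophil, 0 to 2 in megakaryocyte and 3 to 7 in monocyte progenitor cells, 0 to 3 in G1, 4 to 7 in G2/M and 1 to 4 in S. Between vehicle and WT it gave 0 to 3 in immature neutrophils, 0 to 1 in monocytes, 0 to 2 in neutrophil precursors and 0 to 1 in MPP-like cells. Member sums ran from 0.10 to 0.16 in neutrophil precursors and from -1.05 to -0.69 in precursor B cells, and differences in share from -25.33 to -20.7 in lymphoid and from -20.8 to -16.22 in megakaryocyte progenitors.

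Of the alternatives of class counts 314 stayed within 1.5 times of the reported count, 39 rose past that and 35 fell past it. Classes with no called member that stayed without one are among the 314, so that number does not measure how well calls hold. With 2 libraries a group and 28 to 35 precursor B cells in an IACS library, the precision in that class is limited, and detection was simulated for neutrophil precursors only.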
